A study of Mus musculus with 8 samples.

Results

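Intronic tag clusters close to the start of a gene are clusters of capped RNA 5′ ends whose dominant transcription start site (TSS) lay in an intron and at most 10 kb downstream of the 5′-most start of the gene that holds it. A cluster was taken when its dominant TSS was over 500 bp from every annotated transcript start of the same strand, outside same-strand exons and inside a same-strand gene of GENCODE release M21 on mm10. Where several genes held it, the nearest gene start counted. By this rule 853 of 32857 clusters were members in E14, 854 of 33005 in clone A1 and 846 of 32870 in clone C7. Over the 3 lines these were 872 distinct clusters in 648 genes, and 830 of them were members in every line.

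The clusters came from CAGE-seq of nuclear RNA from E14 mouse embryonic stem cells (mESCs), of wild-type genotype, and from Pwwp2a/b double knockout (DKO) mESCs of clones A1 and C7. The 8 libraries were 3 of E14, 2 of A1 and 3 of C7, all from cells kept in serum with LIF, and the authors merged the libraries of a line before they called clusters. Each DKO line is a single clone, so the effect of the knockout cannot be told apart from what else a clone carries. A difference shared by both clones does not settle this, since E14 was the only wild-type line. The deposited file holds positions only, with 1 set per line, so the signal of a cluster and its spread over libraries could not be taken from it and no test between lines could be made. The study lists mapped reads per library, which are not used here. Of the 10 embryonic stem cell markers listed, 10 had a cluster at an annotated start in each line. Of the markers of other cells, 1 of 6 for trophectoderm, 3 of 6 for primitive endoderm and 1 of 6 for mesoderm and neural cells had one, and for fibroblast feeders 4 of 8 did in E14 and 5 of 8 in each clone. Pwwp2a had a start cluster in all 3 lines and Pwwp2b had none in any, so these positions do not check the knockouts.

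RNA polymerase II starts transcription mainly at promoters, where initiation may be spread over many bases or held at a few. An intron near the gene start can hold an alternative promoter, the start of a short unstable RNA, an enhancer that is transcribed, or the end left when a longer RNA is cut and capped again. PWWP2A and PWWP2B bind chromatin of transcribed genes and associate with a histone deacetylase complex, and H3K36 methylation over gene bodies is a known barrier to initiation there. The comparison of E14 with the clones asks whether starts inside genes differ when both proteins are lost.

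No genome sequence was used, but 21 of the 853 E14 members lay far enough inside a RefSeq promoter window (250 bases before to 50 after a RefSeq gene start, assembly GRCm38.p6) to read 35 bases before the dominant TSS and 15 bases from it onwards. Of these 21, 12 lay in the window of a RefSeq start of their own host gene and 9 in the window of a gene on the other strand. With 2.46% of members covered, any check of motifs over the members would be void, and none is given. The sequences below belong to clusters described further on: the 3 of Sall1 that lie in a RefSeq window, the RefSeq starts of Hnrnpf and Frrs1, and 3 clusters whose dominant TSS moved between E14 and both clones, 2 to a CA step and 1 away from one. Each reads 5′ to 3′ on the strand of the cluster, and the capitals mark the base before the dominant TSS and the dominant TSS itself.
Sall1, nearest the gene start (chr8:89043498-89043547, minus strand): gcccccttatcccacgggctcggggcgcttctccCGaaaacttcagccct
Sall1, narrow (chr8:89042930-89042979, minus strand): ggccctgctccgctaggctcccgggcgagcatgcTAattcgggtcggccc
Sall1, widest (chr8:89042844-89042893, minus strand): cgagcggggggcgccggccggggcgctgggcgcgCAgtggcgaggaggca
Hnrnpf (chr6:117907781-117907830, plus strand): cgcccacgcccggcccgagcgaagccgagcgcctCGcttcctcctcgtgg
Frrs1 (chr3:116861654-116861703, plus strand): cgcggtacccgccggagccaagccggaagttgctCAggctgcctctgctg
Ahnak2 in E14 (chr12:112795773-112795822, minus strand): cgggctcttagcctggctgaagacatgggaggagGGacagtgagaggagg
Ahnak2 in A1 and C7 (chr12:112795703-112795752, minus strand): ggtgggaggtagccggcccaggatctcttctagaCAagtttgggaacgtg
Zfp335 in E14 (chr2:164911218-164911267, minus strand): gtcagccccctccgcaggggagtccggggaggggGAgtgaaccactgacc
Zfp335 in A1 and C7 (chr2:164911210-164911259, minus strand): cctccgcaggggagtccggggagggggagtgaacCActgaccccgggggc
Ints6 in E14 (chr14:62760374-62760423, minus strand): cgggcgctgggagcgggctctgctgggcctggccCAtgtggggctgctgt
Ints6 in A1 and C7 (chr14:62760364-62760413, minus strand): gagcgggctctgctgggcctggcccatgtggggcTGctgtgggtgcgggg

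At Sall1, the RefSeq table places a start exactly on the dominant TSS nearest the gene start, and at Hnrnpf and Frrs1 it places 1 at 12 bp and 9 bp upstream of the dominant TSS. Among all members, 24 of 853 in E14 (2.81%) lay within 500 bp of a same-strand RefSeq start in this table and 8 (0.938%) within 50 bp. Members lay over 500 bp from every same-strand GENCODE M21 start. The RefSeq start nearest each of these 24 is therefore not a same-strand GENCODE M21 start. The table is not complete, so the counts are lower limits.

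Members were narrow. The interquantile width, which is the length that holds the tags between quantiles 0.1 and 0.9 of a cluster, had a median of 4 bp in each of the 3 lines, with quartiles of 2 and 13 bp in E14. In E14, 354 of 853 members (41.5%) spanned at most 2 bp and 68.1% (95% Wilson interval 64.9 to 71.2) at most 10 bp. The interval covers counting error only, and clusters of 1 gene are not independent. Intronic clusters further than 10 kb into genes had a median of 3 bp in E14, exonic clusters within 10 kb of the gene start 5 bp and clusters at annotated promoters 20 bp. Members therefore lay between the far intronic and the exonic clusters, and all 3 were well below the promoters. The plot of widths shows that the curves of the 3 lines nearly coincide.

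**Figure D1:**
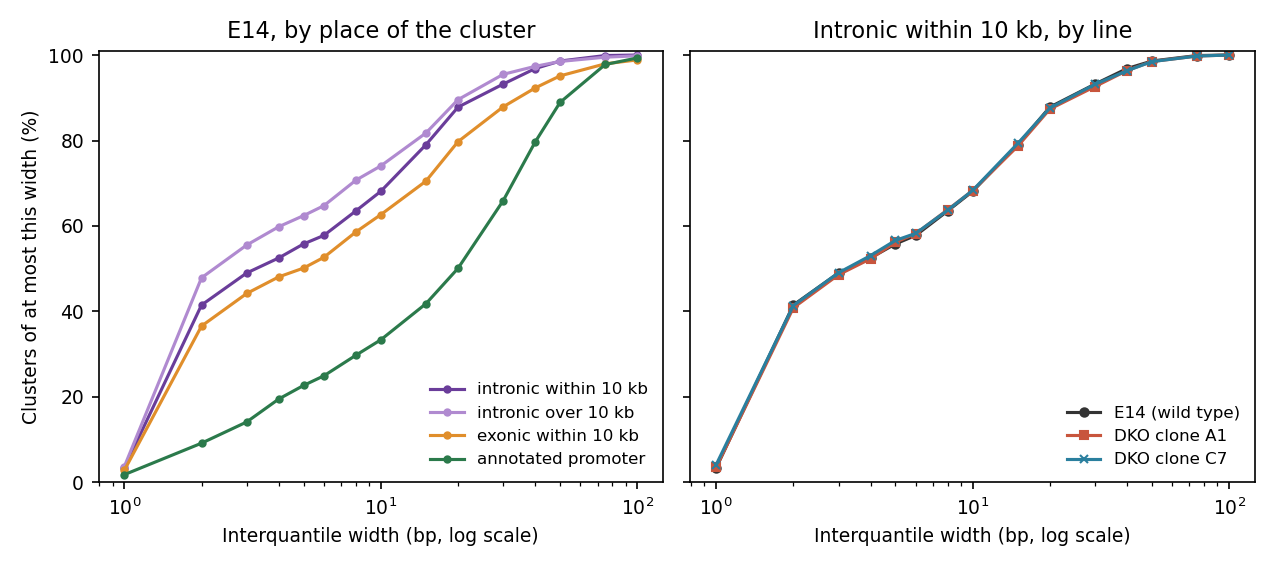
Cumulative share of clusters (%, vertical axis) up to each interquantile width (bp, logarithmic horizontal axis), on the left for 4 places in E14 and on the right for intronic clusters within 10 kb in the 3 lines. Of the intronic clusters within 10 kb, 41.5% spanned at most 2 bp in E14, and the promoter curve lies to the right of the other 3.

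A minority were as wide as promoters. The widest in E14 was at Ahnak2, which encodes a large scaffold protein, with 86 bp in E14 and 97 bp in each clone. A cluster of the annotated gene Gm28845 followed with 74 bp in E14 and 87 bp in each clone. At Mcl1, an anti-apoptotic BCL2 family member, the width was 71, 71 and 72 bp in E14, A1 and C7. The widest of the Sall1 clusters spanned 68, 69 and 67 bp, and the one at Gm30881, opposite the start of Morc3, 63, 63 and 49 bp. Rbbp6 had the same width of 63 bp in all 3 lines. The clones were wider than E14 at Ahnak2 and Gm28845 and differed from it by at most 1 bp at Mcl1 and Sall1.

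Members lay throughout the 10 kb. Their distance from the gene start had a median of 4229 bp in E14, 4251 bp in A1 and 4246.5 bp in C7, with quartiles of 1753 and 6995 bp in E14. Since the amount of intron changes with distance, clusters were also counted per Mb of eligible intron, that is, intron that is outside same-strand exons and start windows, in genes with a cluster at an annotated start. In E14 there were 25.1 per Mb (95% Poisson interval 19.8 to 31.4, 77 clusters) between 500 and 1000 bp and 12.6 per Mb (10.3 to 15.2) between 1000 and 2000 bp. From 2000 to 10000 bp the values lay between 5.15 and 9.92 per Mb. Between 10 and 20 kb, outside the limit, 7.14 per Mb was counted, against 9.06 per Mb over all eligible intron within it. The nearest 2 kb were thus the densest, and the values between 6000 and 9000 bp also lay above the level further in. Between 8000 and 9000 bp the interval (7.79 to 12.4 per Mb) lay above that between 10 and 15 kb (5.85 to 7.65) and overlapped that between 15 and 20 kb (6.66 to 8.74). The bin just inside 10 kb (3.63 to 7.10 per Mb) overlapped the one just outside.

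By median, the clusters nearest the gene start were also the widest, though the widest single members, at Ahnak2 and Gm28845, lay 6870 and 9334 bp in. The median interquantile width in E14 was 10 bp between 500 and 1000 bp, 5 bp between 1000 and 2000 bp, and between 2 and 4 bp in each further bin up to 10 kb. Between 6000 and 9000 bp the density was between 8.96 and 9.92 per Mb. Without the clusters of genes with 4 or more members it was 7.70, 7.83 and 8.04 per Mb in these 3 bins, so a few genes with many clusters gave part of this second rise. The same genes changed the bin between 500 and 1000 bp only from 25.1 to 24.1 per Mb.

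**Figure D2:**
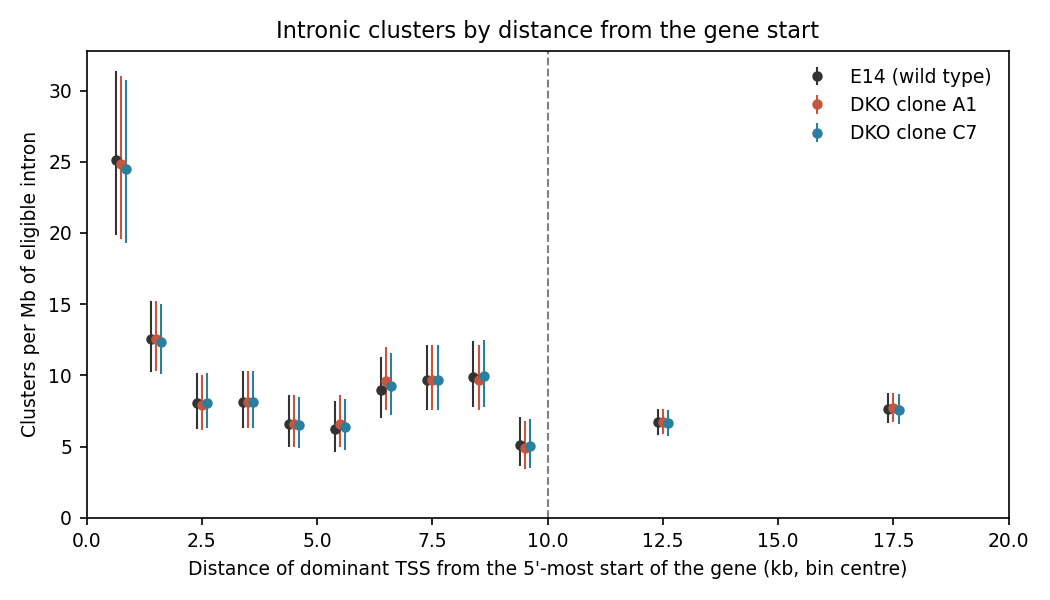
Intronic clusters per Mb of eligible intron (vertical axis) against distance of the dominant TSS from the gene start (kb, bin centres), in genes with a start cluster, for the 3 lines. Bars are 95% Poisson intervals and the dashed line is the 10 kb limit; density fell from 25.1 per Mb in the nearest bin of E14 to between 5.15 and 9.92 per Mb beyond 2 kb.

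The values on both sides of the limits of the rule are given as a description. The nearest cluster outside 10 kb in E14 was at Gm31108 at 10005 bp, with an interquantile width of 4 bp. Between 9 and 10 kb there were 45 clusters and between 10 and 11 kb 62, both with a median width of 2 bp. At the other limit, the Gm21981 cluster lay 501 bp from the nearest transcript start (5 bp wide) and the Gm11489 cluster 497 bp from one (53 bp wide). The 53 members between 501 and 600 bp had a median width of 5 bp, and 62 clusters between 401 and 500 bp, counted as promoters, 7 bp.

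In E14, 613 of 853 members (71.9%, 68.8 to 74.8) lay in the first intron of at least 1 transcript of the host, 72.0% did in A1 and 71.6% in C7, and 40.4% of the far intronic clusters did in E14. Much of the intron this close to a gene start is first intron. In genes with a start cluster, 71.0% of the eligible bases within 10 kb were first intron, and 73.4% of the members of these genes fell there. Per Mb, first introns held 9.37 members (8.56 to 10.2) and later introns 8.32 (7.15 to 9.62). These intervals overlap, so a preference for the first intron was not detectable from the counts. The median distance to the splice donor upstream was 1637 bp and to the splice acceptor downstream 3959 bp.

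A small set had the dominant TSS on the last bases of an intron. In E14, 11 of 853 members lay on the last 2 intron bases before an exon of the host, 9 of them on the base before the last, and 8 of 854 did in A1 and 10 of 846 in C7. Such clusters were also found further in, with 17 of 2193 far intronic clusters in E14, 18 of 2210 in A1 and 16 of 2175 in C7, so the position is not particular to the members. They include Eif2s2, a subunit of the initiation factor that brings the initiator tRNA to the ribosome, and Hnrnpab and Hnrnpm, both RNA-binding hnRNP proteins. Others in E14 were at Rhbg, Gys1, Ltbp4, Pcsk4, Plekhm1, AC152076.4 and Rps6ka4. At Eif2s2 the dominant TSS was at 154888362 on chromosome 2 in E14 and C7 and at 154888318, in the exon, in A1, with widths of 45, 45 and 44 bp.

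In 94 of 853 E14 members (11.02%, 9.09 to 13.3) a cluster of the opposite strand had its dominant TSS within 500 bp, and in 92 of A1 and 91 of C7. The share was 7.30% for far intronic clusters, 24.8% for exonic clusters within 10 kb and 24.7% for annotated promoters in E14. Of the 94 pairs, 72 (76.6%) pointed away from each other, a median of 167 bp apart over all 94. This share was 66.3% for the far intronic and 48.5% for the exonic clusters with such a partner. Members with a partner were wider than those without, with medians of 10 and 3 bp. The partner lay outside genes of its own strand in 54 pairs and at an annotated promoter in 36.

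Among the paired members, Sall4, a zinc finger factor of pluripotent cells, had a member 38 bp wide with its partner 179 bp away at the start of Gm14261, in E14. The Hnrnpf member, 44 bp wide in E14, lay 113 bp from a cluster at the start of 4933440N22Rik. The Mcl1 member lay 135 bp from a cluster inside Mcl1 on the other strand, outside genes of that strand. At Sp3os and Zfp335os, annotated antisense genes, the partner lay 138 and 347 bp away, the latter at the Zfp335 promoter. All of these pointed away from their partner.

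Members were found in few genes, and most hosts had 1. In E14, 503 of 12560 genes with a start cluster hosted at least 1 member (4.005%). These 503 hosts had a median length of 30464 bp, against 20930 bp for all genes with a start cluster. Of the 503, 35.8% also held an exonic cluster and 25.4% an intronic cluster beyond 10 kb, against 11.6% and 7.75% of all genes with a start cluster. Length and expression were not matched between these sets, and their part in the difference was not tested. A further 133 hosts had no cluster at an annotated start, 54 of them protein-coding, and hosts with a start cluster held 79.8% of the members. Protein-coding genes held 685 members (80.3%), lincRNA genes 64, antisense genes 44 and processed transcripts 26. In E14, 503 hosts had 1 member, 92 had 2, 27 had 3 and 14 had 4 or more. Another cluster of the same strand lay within 1000 bp of 41.6% of the members, 29.4% of far intronic clusters, 55.1% of clusters at annotated promoters and 66.0% of exonic clusters within 10 kb.

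Zfp42, which encodes the naive pluripotency marker REX1, had the most members, with 14 in E14, 13 in A1 and 14 in C7. They lay on the minus strand of chromosome 8, between 1103 and 7541 bp from the gene start, and their interquantile widths in E14 ran from 2 to 37 bp. A group of 3 at 1103, 1138 and 1190 bp was 19, 12 and 37 bp wide in E14, in an intron that is the first of a transcript. At 1103 bp the width was 24 bp in A1 and 15 bp in C7, and at 1190 bp 37 bp in every line. The member missing from A1, at 2506 bp, was present there as a cluster of the same 20 bp, with its dominant TSS at 43304493 in an exon in place of 43304474. At 7486 bp the width was 18 bp in E14 and A1 and 1 bp in C7. The 14 positions were thus the same in all 3 lines, and what differed was the width or the dominant base. Zfp42 also held 5 exonic clusters in E14, 6 in A1 and 5 in C7.

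Sall1, a zinc finger factor that associates with the NuRD complex, had 8 members in every line. Of these, 7 lay between 650 and 1644 bp in the first intron and 1 at 4353 bp. The 3 sequences printed for Sall1 are from this group, whose widths in E14 were 40, 1 and 68 bp in the order shown. The dominant TSS of the widest was at 89042858 in E14 and C7 and at 89042822, 36 bp further on, in A1. An opposite-strand cluster lay within 500 bp of 4 of the 8.

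Zfp992, a zinc finger gene with no cluster at an annotated start, had 9 members between 3775 and 7862 bp in E14 and 9 in each clone. The noncoding gene 1700030C10Rik had 7 in every line, 6 of them between 8169 and 8452 bp in E14. The pseudogene 4930519F16Rik on chromosome X and the protein-coding A630089N07Rik also had 7 each, and AU020206, a lincRNA, had 5. Actn4, which encodes an actin cross-linking protein, Gm19951, a lincRNA, and Ltbp4, which binds latent TGF-beta, had 4 each in every line. At the A630089N07Rik member at 6702 bp the width was 12 bp in E14 and A1 and 1 bp in C7. Mybl2, Ngdn, Nphs1 and Uri1 also had 4 in E14, and ties were taken in order of symbol. In the plot of 10 of the genes with most members, the positions line up between the lines.

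**Figure D3:**
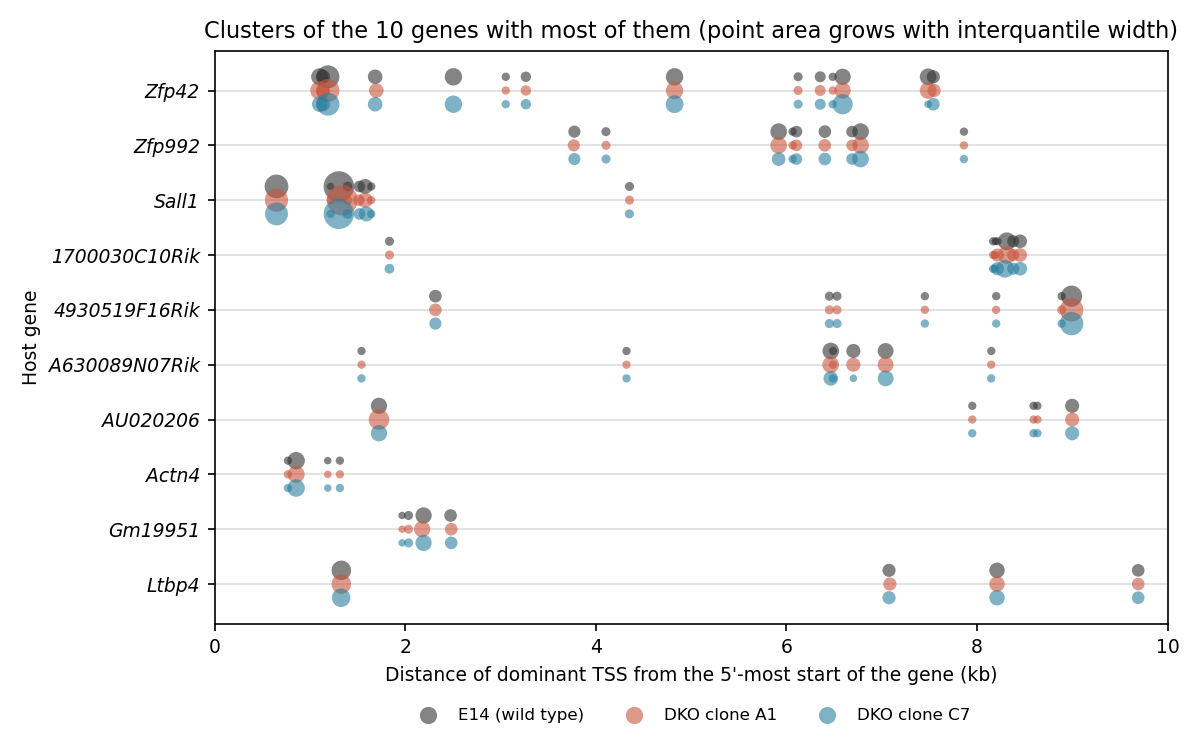
Position of each intronic cluster (kb from the gene start, horizontal axis) in 10 of the genes with most of them in E14 (ties at 4 clusters in order of symbol), with the 3 lines in separate rows per gene and point area growing with interquantile width. Zfp42 has 14, 13 and 14 clusters in E14, A1 and C7, and the positions of the lines coincide or nearly so.

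The gene lists were read against the 4.005% of all genes with a start cluster that hosted a member in E14. Genes of the core and naive pluripotency network hosted members most often of the 8 lists, 11 of 30 in each line (36.7%). They held 27 members in E14, 26 in A1 and 27 in C7. Apart from Zfp42 they included Tdgf1, a Nodal co-receptor, Nr5a2, an orphan nuclear receptor, and Tet1, which oxidises 5-methylcytosine, with 2 each, and Tfcp2l1, Sall4, Dppa4, Utf1, Gdf3 and Zscan10 with 1. The Tdgf1 members lay 2409 and 2531 bp from the start and were 32 and 2 bp wide in E14, and those of Tet1 lay at 6608 and 8659 bp with 31 and 11 bp. The Nr5a2 members at 7606 and 7660 bp were 25 and 3 bp wide. The list was chosen for these cells with earlier results known, expression was not matched, and nothing is read from the share beyond the count.

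Of 35 splicing and hnRNP genes with a start cluster, 8 hosted members in each line (22.9%). They were Hnrnpk, Hnrnpa1, Hnrnpc, Hnrnpm, Tra2a and Srsf4 with 1 each, Srsf10 with 2 and Rbm39 with 2 in E14 and C7 and 1 in A1. Hnrnpk, Hnrnpa1, Hnrnpc and Hnrnpm members were 2 bp wide in every line, with the same dominant TSS in all 3. The Srsf10 member at 3832 bp was 7 bp wide in E14 and 26 bp in each clone around the same dominant TSS. A list of 26 genes, of translation factors together with the nucleolar proteins Npm1 and Ncl and the histone chaperone Nap1l1, had 6 hosts in E14 and C7 and 5 in A1. Its translation factors with members were Eef1a1, which brings aminoacyl-tRNA to the ribosome, Eef1g, Eif4b and, outside A1, Eif2s2. The other hosts were Npm1, itself also a histone chaperone, and Nap1l1, so the count is not one of translation factors alone. The Nap1l1 member at 657 bp was 4 bp wide with the same dominant TSS in each line.

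Few chromatin genes of the PWWP2 and H3K36 pathways hosted members. Of 15 PWWP2 and NuRD genes with a start cluster only Pwwp2a did, with a member 2 bp wide 6120 bp from its start, at 43688118 on chromosome 11 in E14 and in both clones. Of 35 genes of H3K36 methylation, DNA methylation and elongation chromatin, Setd2, which trimethylates H3K36, and Tet1 did in all lines, and Nsd3, an H3K36 methyltransferase, in A1. Of 25 Polycomb and COMPASS genes, Suz12, Mtf2 and Ash2l did in all lines, and Kdm6a, an H3K27 demethylase, in C7. Of 34 self-renewal signalling genes Fgfr2 did, and of 26 long noncoding host genes in E14 Rian did. Wtap and Ptges3 had no member in any line. In these lists the share of hosts ran from 2.94% to 12% in E14, around the 4.005% of all such genes or above it by at most 2 genes.

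**Figure D4:**
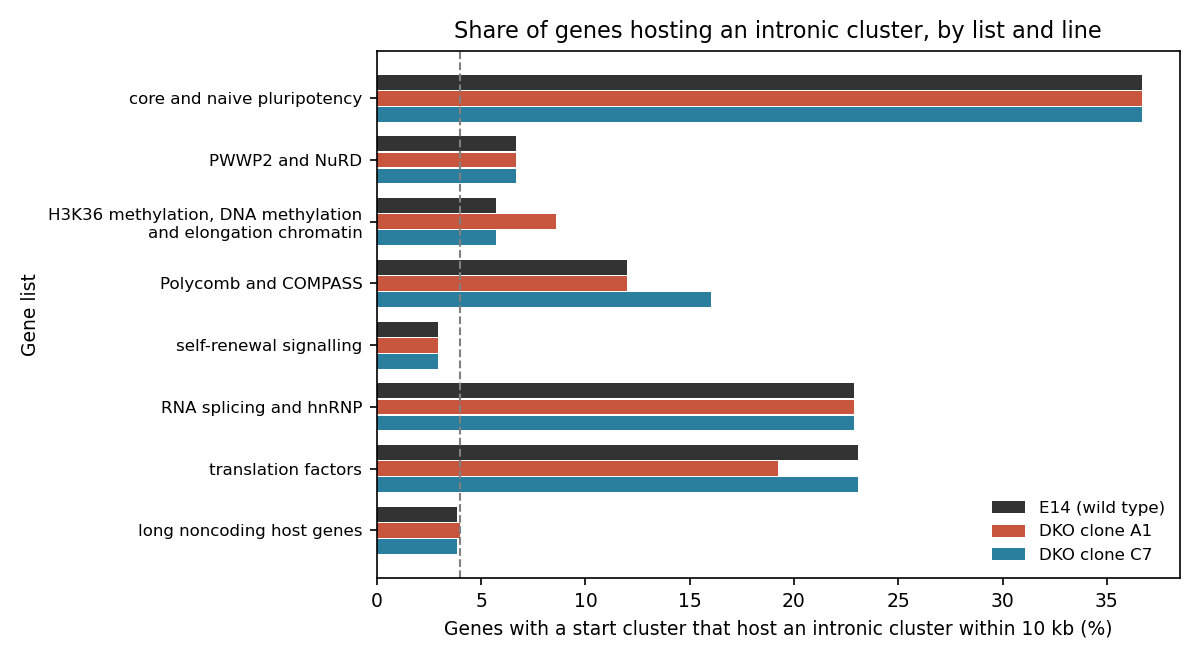
Share of genes with a start cluster that hosted an intronic cluster within 10 kb (%, horizontal axis) for the 8 gene lists and 3 lines, with a dashed line at the 4.005% of all such genes in E14. The pluripotency list stands at 36.7% in every line and the splicing list at 22.9%; the list of translation factors also holds Npm1, Ncl and Nap1l1.

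Presence of members hardly differed between the lines. Of all 32425 E14 clusters with 1 overlapping cluster in each clone, 98.6% had the same first and last base in all lines. Whether outlines were set for each line alone or jointly is not known, so near-equal presence cannot be read as a lack of effect of the knockout. Of 854 members in A1, 3 were present in both clones and absent from E14 (0.351%), where 0.448 percent of all A1 clusters were. Of 853 in E14, 3 were absent from both clones (0.352%), where 0.231 percent of all E14 clusters were. Further, 12 of 854 were in A1 alone (1.41%, 0.806 to 2.44, background 0.657 percent) and 1 of 846 in C7 alone (0.118%, 0.0209 to 0.666, background 0.326 percent). Another 6 members were missing from A1 only and 5 from C7 only. The interval of the share in A1 alone lay above its background, and those of the other 3 shares held theirs. A1 was merged from 2 libraries and not 3, and whether the number of libraries or reads plays a part was not tested.

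The 3 members found in both clones and not E14 were at 6030442K20Rik, at 6056 bp from the gene start, Mybl2, a cell cycle transcription factor, at 5654 bp, and Triml2, at 6886 bp. The 3 found in E14 alone were at Sgo2a, a protector of centromeric cohesion, at 650 bp, Rbpms, an RNA-binding protein, at 8539 bp, and 2210011C24Rik, at 1357 bp. The 6030442K20Rik cluster lay 32 bp from another cluster of its strand in A1, and the Sgo2a cluster 24 bp from one in E14. When clusters within 100 bp were matched, 2 were left in each of these sets of 3. The members in A1 alone were at Abl2, Aven, Serbp1, Platr28, Hnrnpul1, Uri1, Nsd3, Eps15l1, 4930533K18Rik, Cdc6, Adprh and Cct8, and the one in C7 alone at Kdm6a. All 19 were 1 bp long from first to last base. Counting these, clusters of that length were 10 of 853 members in E14 (1.17%), 22 of 854 in A1 (2.58%) and 10 of 846 in C7 (1.18%). Mybl2 shows how such a cluster sat among others, with 4 members present in all 3 lines at 3346, 7647, 7681 and 7757 bp, the last of them 42 bp wide in E14, 60 bp in A1 and 57 bp in C7.

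A further 12 of the 872 clusters were present in all 3 lines but not a member in each, because the dominant TSS moved across an exon edge or the 500 bp limit. Among them, at Pkd2 it lay at 104466874 on chromosome 5, in the intron, in E14 and at 104466885, in an exon, in both clones. At Rbm39 it lay at 156178548 on chromosome 2 in E14 and C7 and at 156178559, in an exon, in A1. Both moves were of 11 bp.

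The outlines of the clusters were nearly identical between lines. Of 838 E14 members with exactly 1 overlapping cluster in each clone, 829 (98.9%) had the same first and last base in all 3 lines, as 98.6% of all 32425 such clusters did. The dominant TSS and the interquantile width inside the outline are therefore what could vary. The dominant TSS of a member differed from E14 in A1 in 244 of 838 (29.1%, background 23.8 percent) and in C7 in 200 (23.9%, background 21.1 percent). It differed between A1 and C7 in 262 (31.3%, background 25.2 percent), more often than either clone differed from E14. In both clones it differed in 98 (11.7%, background 11.2 percent), and in 84 (10.0%, background 8.48 percent) both clones used the same other base. Of the members, 54 moved downstream in both clones (6.44%, background 5.44 percent) and 40 upstream (4.77%, background 4.84 percent), and 30 moved by over 5 bp in both (3.58%, background 5.26 percent). The 95% intervals of the members' shares lay above the background for A1 (26.1 to 32.3) and for A1 against C7 (28.2 to 34.5), began at it for C7 (21.1 to 26.9), and lay below it for moves over 5 bp in both clones (2.52 to 5.06). For the other 4 shares the interval held the background. A move over 5 bp needs a wide enough cluster. In E14, 41.5% of members had an interquantile width of at most 2 bp, against 9.18% of clusters at annotated promoters. Width was not matched between members and background, so neither share is read as a trait of the members. Far intronic clusters gave 29.6% for A1, 24.5% for C7, 31.5% between the clones, 12.7% for both clones and 4.09% for moves over 5 bp in both, all inside the intervals of the members.

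Most moves were short. The median move was 2 bp in each clone, and 88 members in A1 and 60 in C7 moved by over 5 bp. The move was upstream in 121 and downstream in 123 in A1, and upstream in 90 and downstream in 110 in C7. The longest in the same direction in both clones was at Ahnak2, from 112795787 to 112795717 on chromosome 12, 70 bp downstream in A1 and C7 alike. As the sequences printed above show, the step at the dominant TSS there read GG in E14 and CA in the clones. At Zfp335 it read GA in E14 and CA in the clones, where the dominant TSS lay 533 bp and not 525 bp from the gene start. At Ints6, a subunit of the Integrator complex, it went the other way, from CA in E14 to TG in both clones, 10 bp downstream. A cluster of Gm11592 went from TG to CG over 3 bp, so the few moves with sequence had no common step. Ranked by the smaller of the moves in the clones, next after Ahnak2 were Fxyd5, a small membrane protein, with 31 bp in both clones, Snurf, a gene at the Prader-Willi locus, with 22 bp in both, Tpm4, a tropomyosin, with 20 bp in both, and Gm36816 with 19 bp in A1 and 35 bp in C7. These 5 moved downstream, inside clusters of 26 to 86 bp interquantile width in E14. The next moves in this order were in both directions, with 4930445E18Rik 18 bp upstream in both clones and Faf1 17 bp downstream in both, and Zfp518a moved 25 bp upstream in A1 and 15 bp in C7.

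**Figure D5:**
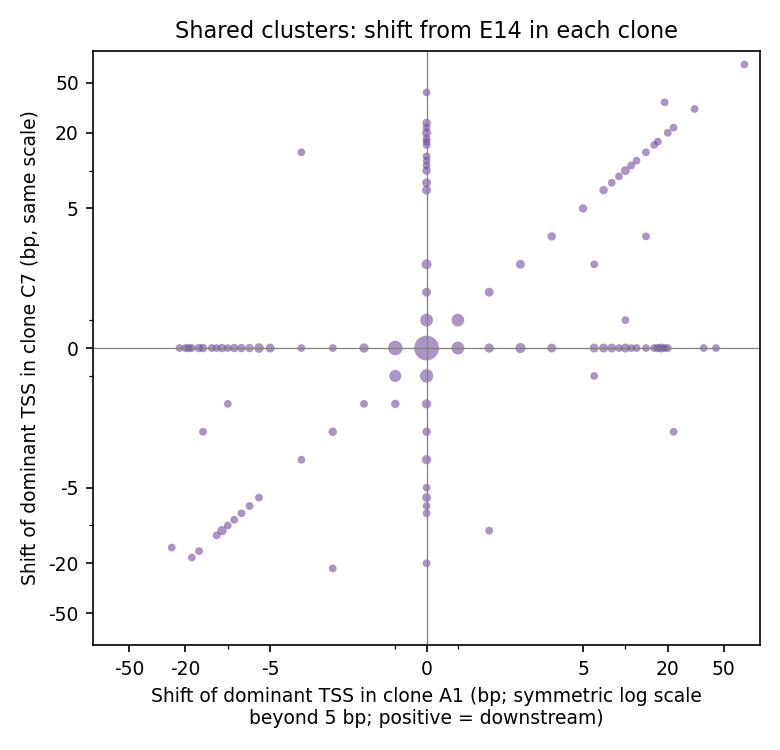
Shift of the dominant TSS from E14 in A1 (horizontal axis) and in C7 (vertical axis), in bp with positive values downstream, on symmetric log axes that are linear up to 5 bp, for the 838 shared members. Point area grows with the number of clusters at a place; Ahnak2 is at 70 bp on both axes, and the points along each axis moved in 1 clone only.

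The interquantile width was equal in all 3 lines in 650 of 838 members (77.6%, background 59.4 percent). It was wider in both clones than in E14 in 61 (7.28%, background 12.5 percent) and narrower in both in 12 (1.43%, background 3.99 percent). Among far intronic clusters the shares were 79.0%, 5.02% and 2.28%. Members with a changed width were thus fewer than among all clusters. The members' intervals for equal width (74.6 to 80.3) and narrower in both (0.821 to 2.49) held the shares of far intronic clusters. The interval for wider in both (5.71 to 9.24) lay above theirs. Starting width was not matched between these sets.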

How the data were processed

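CAGE-seq libraries of nuclear RNA from 3 lines were mapped by the authors to mm10 with STAR 2.4.2a, with unique alignments kept. Tag clusters were called with CAGEr after the libraries of each line were merged. The deposited values are positions, namely cluster start and end, dominant TSS and interquantile blocks (0.1 to 0.9); every score in the file is 0. The minimum signal per cluster is not given in the sources used here. Nor is it given whether cluster outlines were set for each line alone or for the lines together.

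Clusters were assigned with GENCODE M21, one release before the authors' annotation, in Python 3.11.15 (NumPy 2.4.6, SciPy 1.17.1, Matplotlib 3.10.9). The interquantile region was the longest block. Clusters of different lines were matched by 1 bp of overlap on the same strand. Shares have 95% Wilson and densities 95% Poisson intervals, for counting error only; no p-value was computed. Functions were tested on simulated clusters of known position. Genes were named if they hosted a member and stood in a gene list, had most members, held line-specific members, the 5 widest or the 5 farthest moves, or lay at the limits, besides the knocked-out genes and 4 genes whose profiles the study displayed. Examples outside this rule, such as Hnrnpf, Frrs1, Pkd2, Zfp335, Ints6, Gm11592, the other hosts tied at 4 members, the moves after the 5 farthest and the paired or exon-edge clusters, were chosen after their values were seen. Some genes that met the rule for naming are not reported here. Members and lists were chosen with earlier results of these data known.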

Additional observations from a re-analysis of the deposited data

How the results depend on the processing

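No paired analysis was possible because the authors merged the libraries of each line, so no replicate number is left in the data and no replicate could be left out. Sets of 3 values follow the order E14, A1, C7. The number of members was 477, 474 and 471 with a limit of 5 kb, 1369, 1373 and 1357 with 20 kb, and 499, 505 and 496 when clusters under 3 bp were left out. With a start window of 100 bp the median width was 6 bp in E14 and A1, the median distance 2628.5, 2624 and 2633 bp, the share in the first intron 79.4%, 79.5% and 79.3%, and the share with an opposite-strand cluster 16.0%, 15.7% and 15.9%. With 1000 bp the distance was 5266, 5234 and 5266 bp, the first-intron share 68.3%, 68.3% and 68.1%, and the opposite-strand share 7.39%, 7.21% and 7.13%. With protein-coding transcripts only the first-intron share was 60.0%, 59.7% and 59.6%. With a width of at least 3 bp the median width was 11 bp in each line by construction, the opposite-strand share 15.8%, 15.6% and 15.7%, and the median distance in C7 3858.5 bp. An opposite-strand cluster lay within 200 bp of 6.45%, 6.21% and 6.15%, and within 1000 bp of 16.1%, 15.8% and 15.7%. With clusters under 3 bp left out in every line, 10 members counted as in both clones and not E14. The 3 of the main count were 1 bp long, so these 10 overlapped an E14 cluster under 3 bp wide. They crossed the width limit and were not absent from E14. With a start window of 100 bp, 6 members were in both clones and not E14. With C7 left out of the comparison, 15 members of A1 were absent from E14, including those that C7 also held. Members in E14 and not the clones numbered 1 with a start window of 1000 bp, 9 against A1 and 8 against C7. Counting only moves over 5 bp left 88 in A1, 60 in C7 and 30 in both. Leaving out genes with 4 or more members, an alternative chosen after seeing the data, gave 8.16, 8.12 and 8.07 members per Mb. Apart from settings that change which clusters count by construction, the cause was not tested. The other 47 of 104 alternative values stayed within 1.5 times the reported count or inside the 95% interval of the reported share or median. No ordering of the lines is read from any of these, since read depth was not matched between the lines.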
